A study of Mus musculus with 15 samples.

Results

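Long constant open blocks are stretches of the hepatocyte genome that were called open, with no interruption over at least 100 kb, in every chromatin map of the series. They were found by taking the autosomal bins of 2 kb that lay in the open class (euch) in all 3 maps, joining adjacent bins and keeping runs of at least 100 kb. The blocks were thus chosen by the class calls themselves, and this gave 1423 blocks out of 29554 constant open runs of any length. The maps came from srHC-seq, which sonicates crosslinked chromatin and separates its DNA by fragment size, so that chromatin that resists sonication can be told from chromatin that shears easily. Each map covers 1 group of 5 samples and calls every position het (closed), int (intermediate) or euch (open), in mm9 coordinates. The first group was wild type (Wt) and 2 months old, with 2 samples from males and 3 from females. The second had the genotype Alb-Cre;Ezh1-/-;Ezh2f/f, called the knockout below, and was taken at postnatal day 14 (P14), again with 2 samples from males and 3 from females. The third was wild type at P14, with 3 samples from males and 2 from females. Alb-Cre expresses Cre recombinase under the albumin promoter, so Ezh2 is deleted in hepatocytes and the floxed allele stays intact in cells without Cre, while functional Ezh1 is missing from every cell of these mice. All 3 groups were hepatocytes isolated by perfusing the liver.

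Euchromatin is the loosely packed part of the genome, where most transcribed genes lie and where transcription factors reach DNA most easily. Heterochromatin is compact and mostly silent. EZH1 and EZH2 are the alternative catalytic subunits of Polycomb repressive complex 2, which methylates lysine 27 of histone H3, a mark of repressed developmental genes, and the liver completes much of its functional maturation after birth. The maps hold positions and classes with no gene levels, so the hepatocyte label was not checked against marker genes. No annotation of the mm9 build was used here, and blocks are therefore given by position. Each group was read as 1 pooled map, although the description of 1 of the 5 samples taken at 2 months lacks the euch list. There is no replicate of any map and the read depth behind a call is unknown, so every value below is a description without a test. The knockout and 2-month groups are each compared with the same P14 wild-type map, and age or genotype and the mix of sexes cannot be told apart.

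The blocks covered 229.4 Mb, which is 9.28% of the 2472 Mb of autosomes and 30.8% of all bases that were euch in all 3 maps. They made up 21.6% of the euch bases of the 2-month map, 21.9% of those of the knockout map and 21.7% of those of the P14 wild-type map. By number they were 4.81% of the constant open runs, whose median length was 12 kb. A small fraction of the runs thus held a much larger fraction of the constantly open bases. The median block was 140 kb long (quartiles 116 and 184 kb). There were 278 blocks of at least 200 kb, which held 32.6% of the block bases, 57 of at least 300 kb and 4 of at least 500 kb. Around the limit of 100 kb, 221 runs were less than 10 kb above it and 315 runs were up to 10 kb below it. At the limit itself, 49 runs measured 100 kb and 56 measured 98 kb.

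At 918 kb, the block of chromosome 16 from 24052001 to 24970000 stood far above the rest in length. Its euch domain was 1246 kb long at 2 months, 1086 kb in the knockout and 918 kb in the P14 wild type, where the block was the whole domain. The 548 kb block on chromosome 3 (118108001 to 118656000) came next in length. It lay in a euch domain of 952 kb at 2 months, 952 kb in the knockout and 552 kb in the P14 wild type, so the break on its right side was found in the P14 wild-type map alone. The 538 kb block on chromosome 14 (21738001 to 22276000) had domains of 602, 538 and 570 kb in the 2-month, knockout and P14 wild-type maps. The 502 kb block on chromosome 16 (43144001 to 43646000) had domains of 512, 502 and 510 kb in the same order of maps. The second of these had nearly the same extent in every map.

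**Figure D1:**
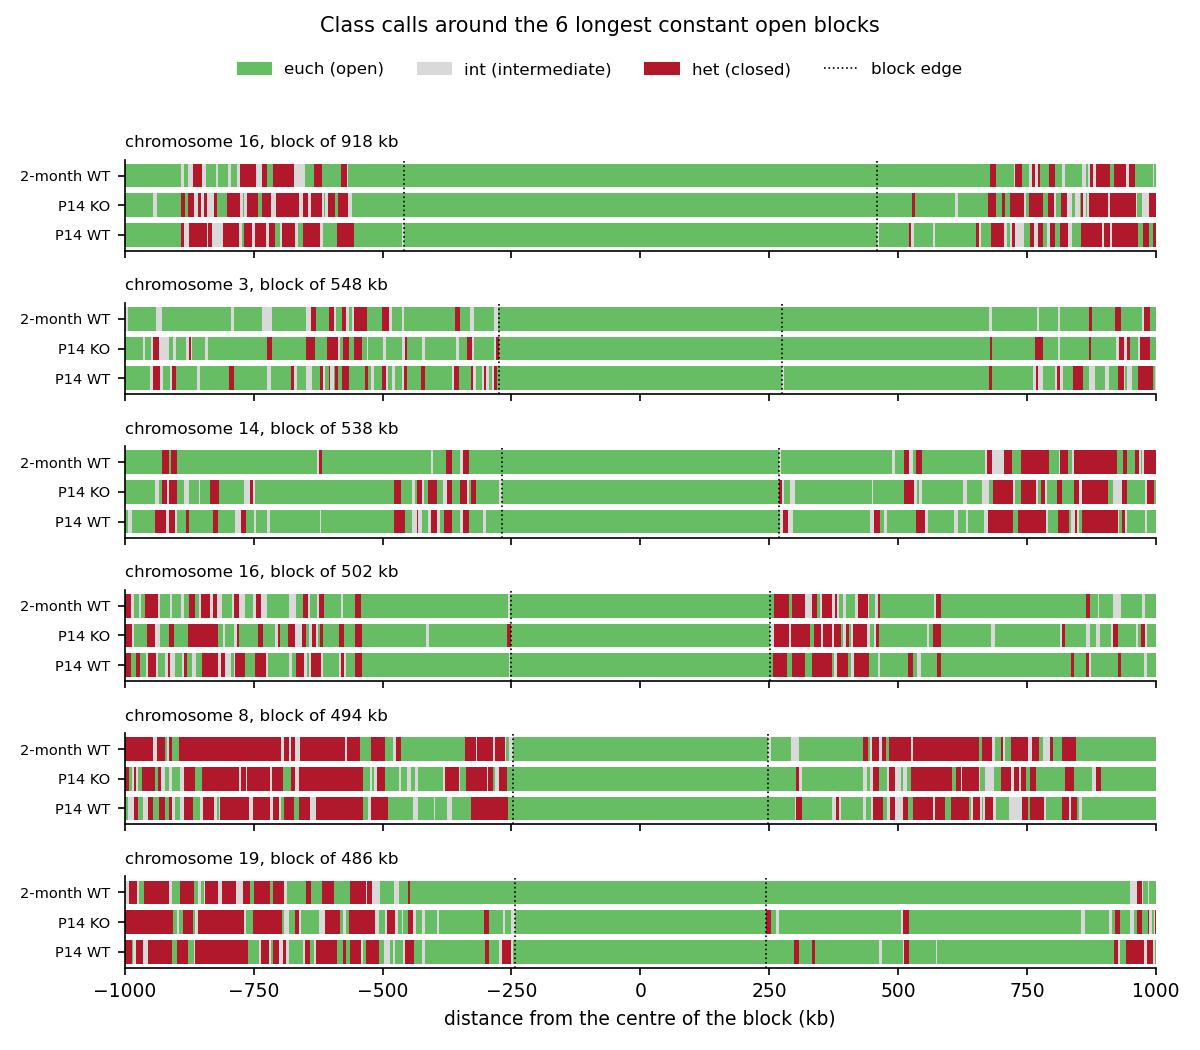
Class calls in the 3 maps for 1000 kb on each side of the centre of the 6 longest blocks, with euch in green, int in grey and het in red; dotted lines mark the block edges and the x axis is distance in kb. The blocks run from 918 kb (top) to 486 kb (bottom), and past the right edge of the chromosome 19 block euch runs on for 708 kb in the 2-month row and for 56 kb in the P14 wild-type row.

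Other blocks among the 10 longest fell on chromosomes 8, 19, 10, 2, 16 and 4. On chromosome 8 (70196001 to 70690000, 494 kb) the euch domain was 494 kb at 2 months, 562 kb in the knockout and 558 kb in the P14 wild type, so here the 2-month map had the shortest domain. The 478 kb block of chromosome 10 (27770001 to 28248000) was of the same kind, with 478 kb at 2 months, 566 kb in the knockout and 560 kb in the P14 wild type. The 486 kb block of chromosome 19 (36594001 to 37080000) went the other way, in a domain of 1398 kb at 2 months, 486 kb in the knockout and 546 kb in the P14 wild type. Of the remaining 3 blocks, those of chromosomes 2 and 16 had domains close to equal in all maps, while that of chromosome 4 had a longer domain at 2 months. On chromosome 2 (104262001 to 104734000, 472 kb) the domains were 498, 482 and 472 kb in the 2-month, knockout and P14 wild-type maps. On chromosome 16 (77240001 to 77702000, 462 kb) they were 476, 474 and 472 kb, and on chromosome 4 (95184001 to 95644000, 460 kb) 514, 462 and 462 kb.

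The longest block of an autosome ranged from 266 kb on chromosome 17 (63608001 to 63874000) to the 918 kb block of chromosome 16. On chromosome 17 its domain measured 486 kb at 2 months and 270 kb in both P14 maps. Chromosome 15 had its longest block near the start of its coordinates (3148001 to 3608000, 460 kb), with domains of 558 kb at 2 months, 484 kb in the knockout and 514 kb in the P14 wild type. The longest block of chromosome 9 (100376001 to 100834000, 458 kb) had domains of 502, 458 and 498 kb in the same order. In both cases the domains exceeded the block by under 100 kb in every map, whereas the longest blocks of chromosomes 13 and 11 lay in 2-month domains over 3 times their own size. The 370 kb block of chromosome 13 (102362001 to 102732000) lay in a domain of 1216 kb at 2 months, 370 kb in the knockout and 372 kb in the P14 wild type. The 288 kb block of chromosome 11 (74706001 to 74994000) lay in one of 912 kb at 2 months, 288 kb in the knockout and 370 kb in the P14 wild type. On chromosome 1 (68678001 to 69080000, 402 kb) the order differed, with 494 kb at 2 months, 404 kb in the knockout and 518 kb in the P14 wild type, the longest of the 3. The longest block of chromosome 18 (16710001 to 17004000, 294 kb) was likewise shorter at 2 months, with 298 kb against 322 kb in both P14 maps. On chromosome 6 (37374001 to 37748000, 374 kb) the knockout domain was the short one, at 430 kb against 688 kb at 2 months and 580 kb in the P14 wild type. The longest blocks of chromosomes 5 and 7 were also whole domains of the P14 wild type. That of chromosome 5 (90612001 to 90962000, 350 kb) had domains of 638 kb at 2 months and 440 kb in the knockout, and that of chromosome 7 (121310001 to 121686000, 376 kb) had 576 and 424 kb.

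Every block sits inside 1 euch domain of each map, and the rule sets the block only as the least extent of that domain. At every edge at least 1 map runs on by 0 kb, so the 3 extensions are not independent of one another. The 2-month domains ran on furthest. The median domain around a block was 246 kb at 2 months (quartiles 176 and 362 kb), 182 kb in the knockout (138 and 248 kb) and 164 kb in the P14 wild type (126 and 228 kb). Beyond the block itself this was a median of 84 kb at 2 months, 14 kb in the knockout and 4 kb in the P14 wild type. Most blocks were thus close to a whole domain of the P14 wild-type map. The block was exactly the whole domain for 74 blocks (5.20%) at 2 months, 295 (20.7%) in the knockout and 555 (39.0%) in the P14 wild type. Intervals of all classes were likewise fewer at 2 months over the genome as a whole, since the maps hold 94111 intervals at 2 months, 120579 in the knockout and 131395 in the P14 wild type.

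**Figure D2:**
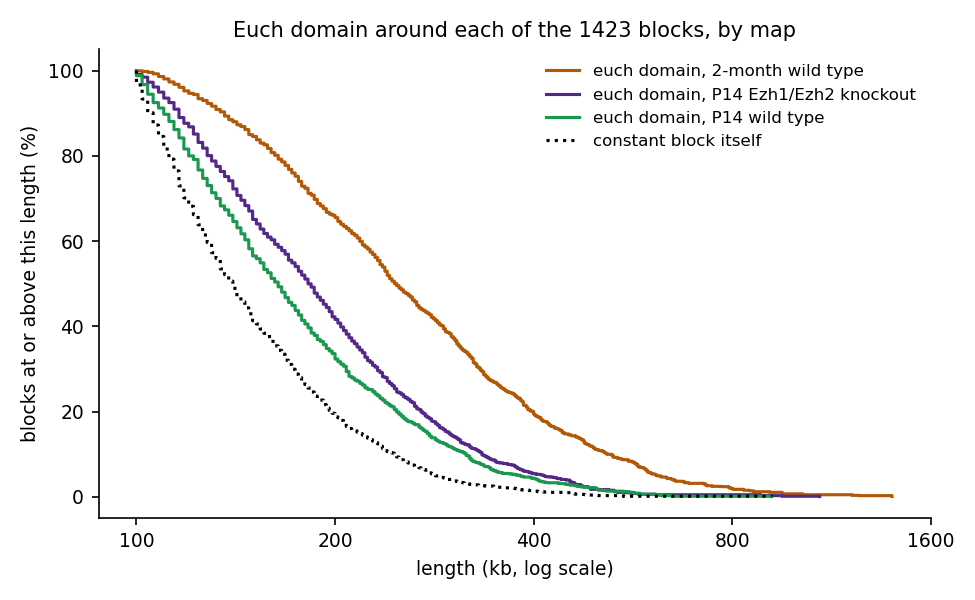
Share of the 1423 blocks (y axis, %) whose surrounding euch domain is at least as long as the value on the x axis (kb, log scale), for the 3 maps, with the length of the block itself as a dotted line. The 2-month curve lies furthest right (median 246 kb) and the P14 wild-type curve (median 164 kb) lies closest to the blocks (median 140 kb).

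Between 2 months and P14 in the wild type, the domain around a block was longer at 2 months for 1182 of 1423 blocks (83.1%), equal for 39 and shorter for 202 (14.2%). Over all 29554 constant open runs 67.0% were longer and 28.3% shorter. A domain at least 1.5 times as long at 2 months was found for 596 blocks (41.9%), against 52.0% of all runs, whose domains were shorter to begin with. The reverse, a P14 wild-type domain at least 1.5 times as long, was found for 52 blocks (3.65%), against 19.8% of all runs. The length in kb moved more around blocks than around other runs, with a median difference of 60 kb for blocks and 12 kb for all runs. Between the knockout and the wild type of P14, the domain was longer in the knockout for 832 blocks (58.5%), equal for 73 and shorter for 518 (36.4%), where 53.9% of all runs were longer and 38.4% shorter. A knockout domain at least 1.5 times as long was found for 251 blocks (17.6%), against 36.5% of all runs. The reverse was found for 132 blocks (9.28%), against 24.3% of all runs. The median difference was 4 kb, so the knockout differed less from the P14 wild type around blocks than the 2-month map did. In 604 blocks (42.4%) the domain was longest at 2 months, shorter in the knockout and shortest in the P14 wild type, against 30.1% of all runs. The 2-month domain alone was the longest for 1024 blocks (72.0%), the knockout domain for 198 (13.9%) and the P14 wild-type domain for 139 (9.77%). Over all runs these shares were 53.9%, 21.3% and 18.2%. By chromosome, the share of blocks with a longer domain at 2 months than at P14 in the wild type was between 78.3% on chromosomes 2 and 15 and 90.0% on chromosome 19. For a longer domain in the knockout than in the P14 wild type it was between 47.8% on chromosome 15 and 71.0% on chromosome 12.

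The extra length at 2 months did not scale with the block. Blocks of 100 to under 150 kb (813 of them) had a median of 82 kb beyond the block at 2 months, 14 kb in the knockout and 4 kb in the P14 wild type. The 57 blocks of at least 300 kb had 74, 22 and 2 kb in the same order. Short and long blocks therefore differed little in what lay beyond them.

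The 5 blocks with the largest excess of the 2-month over the P14 wild-type domain lay on chromosomes 19 and 13. The 124 kb block of chromosome 19 from 37176001 to 37300000 was in a domain of 1398 kb at 2 months, 236 kb in the knockout and 124 kb in the P14 wild type. The 2-month domain was the one that also held the 486 kb block named above and the 280 kb block from 37412001 to 37692000, whose own domain was 334 kb in the knockout and 344 kb in the P14 wild type. Further along chromosome 19, 1 domain of 1024 kb at 2 months held the 104 kb block from 39796001 to 39900000 and the 114 kb block from 40290001 to 40404000. The domains of these blocks were 440 and 306 kb in the knockout and 104 and 114 kb in the P14 wild type, so each was a separate domain equal to the block in the P14 wild type. On chromosome 13 the 104 kb block from 102822001 to 102926000 was in a domain of 1216 kb at 2 months, 300 kb in the knockout and 104 kb in the P14 wild type.

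The 5 blocks with the largest excess of the knockout over the P14 wild-type domain lay on chromosomes 12 and 3. A knockout domain of 884 kb on chromosome 12 held 3 of them. The 108 kb block from 80810001 to 80918000 had a domain of 132 kb at 2 months, 884 kb in the knockout and 112 kb in the P14 wild type. For the 142 kb block from 81128001 to 81270000 the values were 614, 884 and 142 kb, and for the 406 kb block from 80386001 to 80792000 they were 470, 884 and 406 kb. In the knockout map this stretch had no break between the 3 blocks, while both wild-type maps broke it. In the gap between the blocks that end at 80792000 and start at 80810001, the break of the 2-month map and that of the P14 wild type lay at different positions without overlap. On chromosome 3 the 398 kb block from 118660001 to 119058000 had domains of 952 kb at 2 months, 952 kb in the knockout and 398 kb in the P14 wild type. The 102 kb block of chromosome 3 from 57564001 to 57666000 had 230, 536 and 102 kb.

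Every block edge exists because at least 1 map left euch there, and the P14 wild type was the map that most often did. Of the 2846 edges, the 2-month map left euch in the first 2 kb outside at 563 (19.8%), the knockout map at 1277 (44.9%) and the P14 wild-type map at 1740 (61.1%). Over the edges of all constant open runs the shares were 31.1%, 43.6% and 55.7%. The rule uses these calls, so the counts describe which map trimmed the blocks and support nothing further. The P14 wild-type map alone ended at 1220 edges (42.9%), the knockout alone at 764 (26.8%) and the 2-month map alone at 253 (8.89%). An edge at the same 2 kb position in all 3 maps was uncommon, with 125 of 2846 (4.39%), against 5.33% for all constant open runs. Where a map ended, the first bin outside was het at 33.0% of the edges at which the 2-month map ended, at 39.5% in the knockout and at 44.0% in the P14 wild type, and int otherwise. At the ends of all euch domains the next interval was het in 45.6% of cases at 2 months, 51.0% in the knockout and 52.6% in the P14 wild type. At the ends of long euch domains without a block it was het in 37.5%, 43.0% and 43.0%, which is near the values of the block edges in both P14 maps.

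Both edges lay at the same position in all 3 maps for 4 blocks (0.281%), against 0.504% of all constant open runs. The longest of them were 196 kb on chromosome 4 (60810001 to 61006000), 192 kb on chromosome 1 (89932001 to 90124000) and 130 kb on chromosome 14 (62206001 to 62336000). What surrounded these fixed domains still differed by map. Within 1 Mb on both sides of the chromosome 1 block, euch covered 53.1% at 2 months, 54.2% in the knockout and 40.3% in the P14 wild type. For the chromosome 14 block these shares were 68.6%, 59.0% and 53.7%, and for the chromosome 4 block 87.3%, 78.2% and 78.9%.

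Beyond the end of the domain that held a block, euch usually resumed after a short break. At 2 months the interval after the domain led straight back to euch at 64.8% of 2524 ends, in the knockout at 61.5% of 2724 and in the P14 wild type at 57.9% of 2748. Over the ends of all euch domains the shares were 50.0%, 46.0% and 45.6%. The median break that led back to euch was 6 kb at 2 months, 6 kb in the knockout and 8 kb in the P14 wild type. The high share belonged to long domains in general: for euch domains of at least 100 kb that held no block it was 64.3% at 2 months, 59.2% in the knockout and 58.9% in the P14 wild type.

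Which map ended at a block edge also bears on how far closed chromatin lay from it, since the P14 wild type ended at 61.1% of edges and the 2-month map at 19.8%. The distances that follow are therefore partly set by the rule and are a description. The distance from a block edge to the first het bin had a median of 72 kb at 2 months (quartiles 18 and 192 kb), 20 kb in the knockout (4 and 88 kb) and 8 kb in the P14 wild type (0 and 54 kb). Het adjoined the edge directly at 6.54% of edges at 2 months, 17.7% in the knockout and 26.9% in the P14 wild type, against 13.5%, 19.6% and 27.0% of the edges of all constant open runs. No het lay within 100 kb at 43.1%, 22.6% and 15.0% of block edges, in the same order, against 25.5%, 11.3% and 7.56% of the edges of all runs. Over all runs the median distance was 24 kb at 2 months, 8 kb in the knockout and 6 kb in the P14 wild type, so the order of the maps was the same around constant open runs of any length.

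The profile of calls outward from the edges had a dip and then a long decline. From 2 to 4 kb outside the edge, euch was called at 74.0% of edges at 2 months, 46.9% in the knockout and 32.9% in the P14 wild type. From 18 to 20 kb outside, it was back to 79.8%, 71.3% and 66.7%. Past that point it declined slowly and was still 55.6% at 2 months, 53.1% in the knockout and 51.2% in the P14 wild type at 490 to 492 kb, which 2840 of the edges reached. The dip is where the rule ended the blocks, and it was deepest in the P14 wild-type map. The profile counts each edge and takes in bins of other blocks, which are euch by the rule, so its level cannot be set against the bases outside blocks. Counted once and without blocks, the bases 200 to 500 kb from a block were 43.4% euch at 2 months, 42.1% in the knockout and 40.3% in the P14 wild type, and those 500 to 1000 kb away 32.8%, 32.7% and 33.9%. Over all autosomal bases outside blocks the shares were 37.2%, 36.6% and 36.9%.

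**Figure D3:**
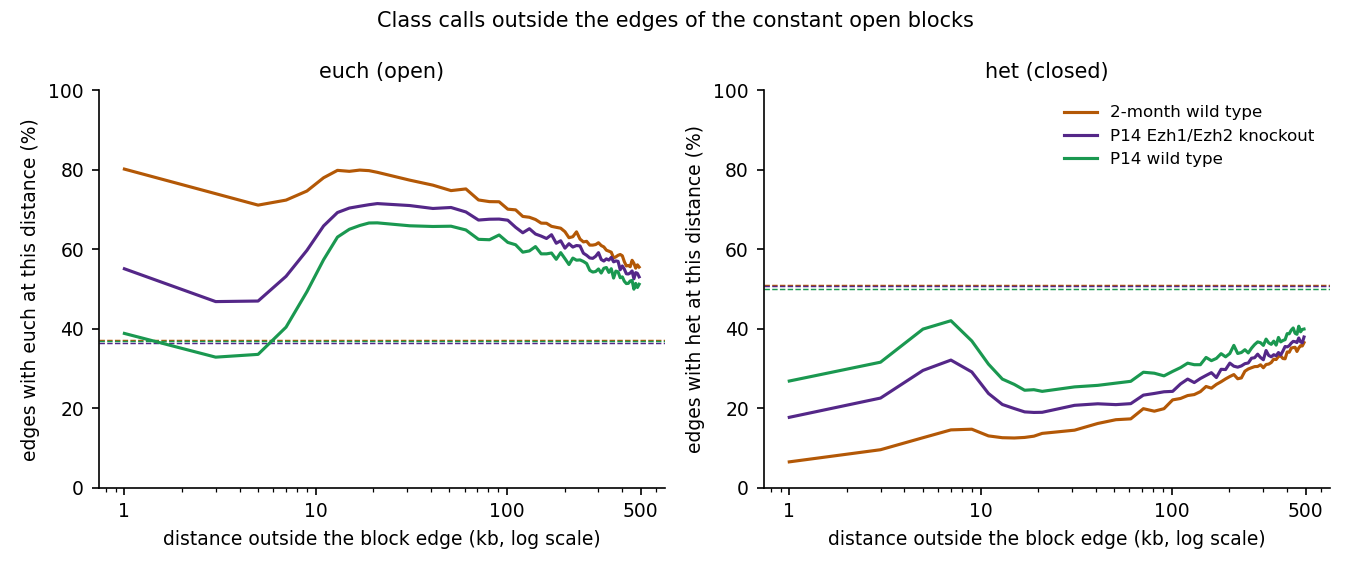
Share of the 2846 block edges (y axis, %) at which a 2 kb bin at the distance on the x axis (kb, log scale) was euch (left) or het (right), for the 3 maps; dashed lines give the share of each map over all autosomal bases outside blocks, while the profile also counts bins of other blocks. The 2-month line is the highest for euch and the lowest for het at the distances plotted, and the P14 wild-type line the reverse.

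Counted once per base, the 267.5 Mb within 100 kb of a block edge were euch in 74.5% at 2 months, 67.4% in the knockout and 61.8% in the P14 wild type. With the bases of other blocks left out, 233.4 Mb remained, and the shares were 70.8%, 62.7% and 56.3%. Het covered 19.6% of these bases at 2 months, 26.1% in the knockout and 32.2% in the P14 wild type. Set against the P14 wild type, 25.1% of them were called more open at 2 months and 7.50% more closed, where 15.0% and 15.1% of all bins outside blocks were. In the knockout 19.5% were called more open and 11.2% more closed, where 13.3% and 13.8% of all bins outside blocks were. Part of this excess is built into the rule, which placed most block edges at a P14 wild-type break. The direction was the same past 10 kb. A break that starts at an edge can run past 10 kb, so the rule still bears on these bases. Het in the P14 wild type was called at 31.1% of edges from 10 to 12 kb and at 24.7% from 18 to 20 kb. From 10 to 100 kb outside, 21.8% of bases were more open and 7.16% more closed at 2 months, and 16.9% were more open and 9.62% more closed in the knockout. Among the bases within 100 kb that were not euch in the P14 wild type, 46.6% were euch at 2 months and 34.2% were euch in the knockout. Over all bases outside blocks these shares were 17.4% and 14.5%.

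The balance of more open and more closed calls changed steadily with the distance from a block. Set against the P14 wild type, the net move towards open at 2 months was 30.7 percentage points within 20 kb, 13.9 points from 20 to 100 kb, 10.5 points from 100 to 200 kb and 4.11 points from 200 to 500 kb. It was a net move towards closed beyond that, by -1.86 points from 500 to 1000 kb, -7.38 points from 1000 to 2000 kb and -8.18 points farther than 2000 kb. Bases near a block and bases far from any block thus differed in opposite directions between 2 months and P14. The values near a block are partly set by the rule, which placed most edges at a P14 wild-type break. Long stretches that were euch in some maps only cannot hold a block, so the far values depend on the rule too. Over all bases outside blocks the net move was -0.105 points at 2 months and -0.484 points in the knockout. A move towards open near blocks therefore leaves a move towards closed elsewhere. The knockout showed the same sequence at smaller size, with 12.5, 7.16, 6.24 and 2.66 points at the first 4 distances and -1.58, -4.21 and -5.78 points at the other 3. Both comparisons share the P14 wild-type map.

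In euch shares, the bases 20 to 100 kb from a block were 69.4% euch at 2 months, 63.8% in the knockout and 58.4% in the P14 wild type. Those more than 2000 kb from any block were 22.5% euch at 2 months, 24.2% in the knockout and 28.4% in the P14 wild type. The contrast between near and far bases was therefore greatest at 2 months. Near and far are both defined by the rule, so this contrast is a description. Without runs of at least 100 kb that were int in all maps, the farthest bases were 25.0%, 26.9% and 31.5% euch, and their net move was -9.09 points at 2 months and -6.42 points in the knockout.

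Net moves were also taken for each autosome in 3 distance classes. The rule placed most block edges at a P14 wild-type break, so the direction within 100 kb is partly set by it. Bases beyond 500 kb are also sorted by the rule. Counts of autosomes are therefore a description, and the autosomes are not separate support. Within 100 kb of a block, the net move at 2 months was towards open on 19 of 19 autosomes, with 12.3 points on chromosome 2 as the lowest value and 24.4 points on chromosome 17 as the highest. In the knockout it was also towards open on 19 of 19, with chromosome 13 lowest (2.94 points) and chromosome 11 highest (12.5 points). From 100 to 500 kb it was towards open on 18 autosomes at 2 months, all but chromosome 10 (-2.37 points), and on 18 in the knockout, all but chromosome 3 (-0.0776 points). Beyond 500 kb it was towards closed on 16 autosomes at 2 months, all but chromosomes 7, 11 and 19, and on 17 in the knockout, all but chromosomes 11 and 19. The value within 100 kb was above that from 100 to 500 kb on 19 of 19 autosomes at 2 months and on 18 in the knockout, where chromosome 4 had 4.41 points within 100 kb and 4.78 points from 100 to 500 kb. Over all bases outside blocks the net move was towards open on 52.6% of the autosomes at 2 months and on 31.6% in the knockout.

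**Figure D4:**
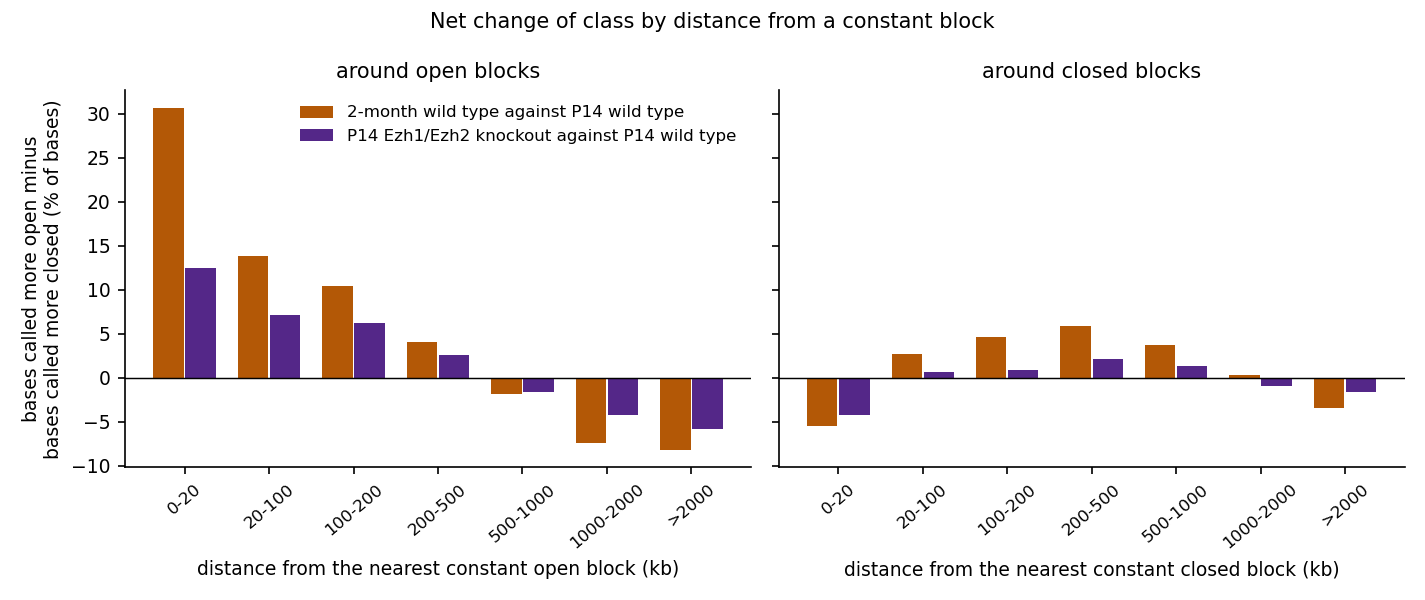
Net change of class against the P14 wild-type map (y axis, % of bases called more open minus % called more closed) by distance from the nearest constant block (x axis, kb), for the 2-month map and the knockout map; blocks of the open class are on the left and of the closed class on the right. Around open blocks the bars go from 30.7 and 12.5 points within 20 kb to -8.18 and -5.78 points beyond 2000 kb.

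For single blocks, the euch share of the 1 Mb on each side had a median of 58.5% at 2 months (quartiles 45.8 and 70.6%), 56.7% in the knockout (43.9 and 67.1%) and 53.5% in the P14 wild type (42.4 and 63.2%). It was higher at 2 months than in the P14 wild type for 1013 of 1423 blocks (71.2%), against 64.6% of all constant open runs. It was higher in the knockout than in the P14 wild type for 956 blocks (67.2%), against 60.9% of all runs. Both excesses over the background were modest. The difference had a median of 6.70 points at 2 months, with a range from -35.5 to 31.8 points, and of 2.90 points in the knockout, with a range from -16.5 to 20.9 points.

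Some blocks stood alone in closed surroundings in all 3 maps. The 214 kb block of chromosome 7 from 80566001 to 80780000 had euch in 8.20% of the 1 Mb on each side at 2 months, in 7.6% in the knockout and in 6.90% in the P14 wild type. Its own domain measured 244, 232 and 214 kb in these maps. A 250 kb block of chromosome 9 (34830001 to 35080000) had surroundings of 9.20%, 8.30% and 10.3% euch and domains of 262, 254 and 250 kb. Both had domains that differed by at most 30 kb between maps. The 122 kb block of chromosome 11 (65506001 to 65628000) had surroundings of 8.0%, 10.7% and 9.20%, the 330 kb block of chromosome 7 (82572001 to 82902000) 9.10%, 10.5% and 14.6%, and the 114 kb block of chromosome 12 (117512001 to 117626000) 12%, 10.9% and 11.4%. In all, 92 blocks had surroundings with under 30% euch averaged over the maps. Their domains ran on past the block by a median of 38 kb at 2 months, 6 kb in the knockout and 3 kb in the P14 wild type. The surroundings start at the block edge, so what a domain adds beyond its block counts as euch there.

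At the other extreme, 245 blocks had surroundings with at least 70% euch, and their domains ran on by a median of 130 kb at 2 months, 22 kb in the knockout and 4 kb in the P14 wild type. As the surroundings include these extensions, a longer extension with more open surroundings is partly built into the grouping. The highest surroundings belonged to the 166 kb block of chromosome 1 from 59790001 to 59956000, with 94.0% euch at 2 months, 88.9% in the knockout and 85.0% in the P14 wild type. Its domain was 954 kb at 2 months, 294 kb in the knockout and 332 kb in the P14 wild type. Next were neighbouring blocks of chromosome 10, which shared 1 domain of 636 kb at 2 months and lay in separate domains at P14. The 114 kb block from 17064001 to 17178000 had a domain of 132 kb in the knockout and 118 kb in the P14 wild type, and the 108 kb block from 16874001 to 16982000 had 114 and 110 kb. Euch covered 90.2% of the surroundings of the 114 kb block at 2 months, 86.3% in the knockout and 87.7% in the P14 wild type. For the 108 kb block these shares were 86.2%, 86.4% and 86.9%, so there the 2-month map was the lowest. The 280 kb block of chromosome 19 named above was next, with surroundings of 90.4% euch at 2 months, 87.6% in the knockout and 80.2% in the P14 wild type. The 140 kb block of chromosome 4 from 60052001 to 60192000 completed the set, with 89.4%, 83.9% and 84.4% in the same order and domains of 294, 228 and 146 kb.

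Many blocks lay near another block, but the spacing of other constant open runs was not taken for comparison. The rule allows no interruption, so a short break in 1 map can part a stretch into neighbouring blocks. The nearest other block was a median of 216 kb away (quartiles 58 and 769 kb), 258 blocks (18.1%) had one within 20 kb, and 284 (20.0%) had none within 1 Mb. Joining blocks over gaps of at most 20 kb gave 119 chains of at least 2 blocks, with 5 blocks in the largest. The 139 gaps inside the chains were short, with a median of 8 kb, and differed by map. Each gap exists because at least 1 map left euch there, so the counts by map again describe which map trimmed the blocks. A gap was euch throughout in 93 cases (66.9%) at 2 months, 49 (35.3%) in the knockout and 43 (30.9%) in the P14 wild type. A break in all 3 maps was present in 24 gaps (17.3%), and a break in the P14 wild type alone in 34 (24.5%). Of the gap bases, 9.90% were het at 2 months, 24.9% in the knockout and 28.8% in the P14 wild type. Likewise, 301 blocks (21.2%) shared their euch domain with another block at 2 months, 117 (8.22%) in the knockout and 97 (6.82%) in the P14 wild type. Gaps and shared domains were not counted over all constant open runs, so these shares have no background.

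The longest chain spanned 950 kb on chromosome 3, from 118108001 to 119058000, and was 2 blocks parted by 4 kb that were not euch in the P14 wild type alone. The chain with the most blocks, 5 over 866 kb, lay on chromosome 1 from 162358001 to 163224000. It was 98.6% euch at 2 months, 96.3% in the knockout and 96.8% in the P14 wild type, in 2, 5 and 4 separate domains. Chains can thus be broken at different places in each map. On chromosome 16 a chain of 3 blocks over 790 kb (42856001 to 43646000) had 4 kb outside euch at 2 months, 14 kb in the knockout and 2 kb in the P14 wild type. On chromosome 5 a chain of 3 blocks over 680 kb (89040001 to 89720000) had 12, 14 and 14 kb. On chromosome 12 a chain of 4 blocks over 630 kb (58020001 to 58650000) had 4 kb at 2 months, 6 kb in the knockout and 18 kb in the P14 wild type.

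Blocks were found on every autosome, at unequal density. Chromosome 19 had 60 blocks, 9.78 per 10 Mb, which covered 16.1% of its length. Chromosome 7 had 55 blocks, 3.61 per 10 Mb, which covered 5.67%. Chromosome 7 also had the lowest euch share in every map, with 33.3% at 2 months, 30.3% in the knockout and 29.8% in the P14 wild type. Across the 19 autosomes the percentage in blocks and the percentage of euch in the P14 wild type had a Pearson r of 0.78 and a Spearman rho of 0.85, as a description, since block bases are part of the euch bases. The other autosomes had between 4.41 blocks per 10 Mb (chromosome 17) and 6.61 (chromosome 18). Constant closed blocks, found by the same rule on het, ran the other way, with 0.815 per 10 Mb on chromosome 19 and 9.57 on chromosome 7. Across the 19 autosomes the densities of open and closed blocks had a Pearson r of -0.70 and a Spearman rho of -0.73. This is a description, since bases in one kind of block cannot be in the other. Along the chromosomes, each length was divided into 10 equal parts. Blocks covered 5.88% of the first part, 6.40% of the last and between 8.39% and 11.8% of the parts between them.

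**Figure D5:**
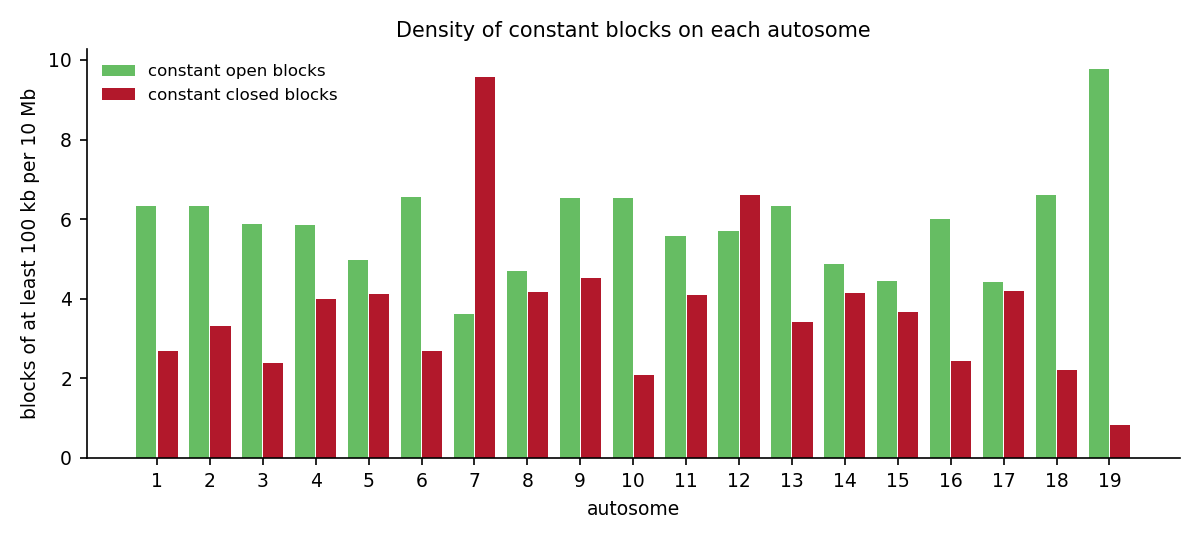
Number of constant blocks of at least 100 kb per 10 Mb (y axis) on each autosome (x axis), with open blocks in green and closed blocks in red. Open blocks are densest on chromosome 19 (9.78) and sparsest on chromosome 7 (3.61), where closed blocks are densest (9.57).

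Long stretches held no block at all, and the longest are given here as chosen after their values were seen. The first was 19.3 Mb on chromosome 14, from 103770001 to 123028000. Euch covered 29.9% of it at 2 months, 35.7% in the knockout and 43.3% in the P14 wild type, so the P14 wild-type map was the most open of the 3 there. The next was 17.9 Mb on chromosome 7 (38816001 to 56676000), with 19.4% euch at 2 months, 15.5% in the knockout and 14.4% in the P14 wild type, and 13 constant closed blocks. Het covered 37.8%, 41.2% and 43.0% of it in the same order, and the rest was int. Over all autosomal bases outside blocks het covered 51.0%, 50.7% and 50.1%. The low euch share there thus went with much int and not with more het.

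Many long open domains of a single map held no block. By the rule every block lies in a long open domain of each map. The shares below are therefore partly set by the rule and follow how many long domains each map has. Of euch domains of at least 100 kb, 1262 of 2737 (46.1%) held a block at 2 months, 1362 of 2185 (62.3%) in the knockout and 1374 of 1923 (71.5%) in the P14 wild type. At 300 kb or more the shares were 85.5%, 97.6% and 99.2% in the same order of maps, so most of the longest domains of each map held a block. The domains that held no block numbered 1475 at 2 months, 823 in the knockout and 549 in the P14 wild type. Blocks made up 40.2% of the bases in long euch domains at 2 months, 59.6% in the knockout and 70.5% in the P14 wild type.

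Constant closed blocks, the runs of het of at least 100 kb in all 3 maps, give the nearest comparison. The 1423 open blocks had a median length of 140 kb and the 950 closed blocks one of 142 kb. The open blocks had the shorter tail: 278 of them were at least 200 kb long and held 32.6% of the open block bases, against 260 closed blocks with 47.6% of the closed block bases. At least 500 kb was reached by 4 open blocks and by 27 closed blocks. The median euch domain around an open block was 246 kb at 2 months, 182 kb in the knockout and 164 kb in the P14 wild type, and the median het domain around a closed block was 266, 238 and 200 kb in the same order. The domains of both classes were therefore longest at 2 months and shortest in the P14 wild type. The flanks differed more between the kinds of block. Within 100 kb of an open block, with other open blocks left out, the share of the block's own class was the 70.8%, 62.7% and 56.3% given above. Around closed blocks it was nearly the same in all maps, at 69.6% at 2 months, 70.3% in the knockout and 69.5% in the P14 wild type. By autosome, the net move at 2 months within 100 kb was towards open on 19 of 19 around open blocks. Around closed blocks it was towards open on 9 of 19. The P14 wild type most often ended both kinds of block, at 61.1% of open and 49.4% of closed block edges. The rule thus pushes flank values towards open around open blocks and towards closed around closed blocks. How much of the contrast comes from the rule was not tested. From 100 to 500 kb the surroundings of both kinds of block were alike in this count, with a net move towards open on 18 of 19 autosomes around open blocks and on 18 around closed blocks at 2 months, and on 18 and 16 in the knockout. Farther than 2000 kb from a block, both kinds had a net move towards closed. It was -8.18 points for open and -3.43 points for closed blocks at 2 months, and -5.78 and -1.59 points in the knockout. Along the chromosomes, the commonest neighbours were open blocks next to open blocks: of 2354 pairs of neighbouring blocks, 1111 (47.2%) were both open, 644 (27.4%) both closed and 599 (25.4%) mixed, with a median of 736 kb between the blocks of a mixed pair. There were more open than closed blocks, and 139 of the open pairs were the gaps of at most 20 kb inside chains. The shares under a random order were not taken, so these have no background.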

How the data were processed

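The deposited data are 9 lists of intervals, 1 for each class in each group, of 15 samples in 3 groups. Their score column, as deposited, is 0 on every line, so they hold no signal. Per the submitters' processing notes, bcl2fastq 2.19.0.316, STAR 2.4.2a and bedtools were used with the build mm9, and how the domains were called is not given in the sources used here. On chromosomes 1 to 19 and X the lists of each group tiled the sequence without gap or overlap, with edges on a 2 kb grid. Maps were read in 2 kb bins with Python 3.11.15, NumPy 2.4.6 and SciPy 1.17.1, and drawn with Matplotlib 3.10.9. Coordinates are 1-based. Block finding was tested on simulated maps. The members, lists and naming rules were chosen with earlier results of these data known. Named regions are the 10 longest blocks, the longest of each autosome, the 5 with the largest domain excess in each comparison, the 5 with the lowest and highest surroundings, the 5 longest chains and the 3 longest blocks with fixed edges. Gene content and sequences were not analysed here, because the annotation at hand is for another build.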

Additional observations from a re-analysis of the deposited data

How the results depend on the processing

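No paired analysis was possible because each list pools the samples of its group. For that reason no sample could be left out either. Leaving out each autosome in turn left all 266 recomputed values within their tolerance (1.5 times for counts and bases, the 95% binomial interval for shares and medians, which treats blocks as independent). No autosome held more than 125 of the 1423 blocks, so counts and bases could not leave their tolerance, and shares and medians were unlikely to. For flank shares the interval used the number of block edges as its sample size. Without chromosome 1 there were 1298 blocks, the fewest, and without chromosome 17 there were 1381. Under the other alternatives 33 of 58 values stayed within their tolerance, and the rest moved and are among the values below. The order of the maps was the same under every alternative run for domain length, edges, flanks, domain ends and long domains. A minimum of 150 kb gave 610 blocks with 131.7 Mb, domain medians of 313 kb at 2 months, 232 kb in the knockout and 218 kb in the P14 wild type, and 59.1% of edges at which the P14 wild type ended. A minimum of 80 kb gave 2090 blocks and domain medians of 224, 154 and 138 kb. Counting a map as ended within 10 kb of the edge gave 39.0%, 65.4% and 78.4% of edges. Euch covered 77.0%, 61.1% and 51.7% of the first 20 kb, 60.4%, 57.2% and 54.1% of the first 500 kb, and 70.8%, 62.7% and 56.3% of the first 100 kb without other blocks. A block covering at least 50% of its domain was held by 34.7% of long euch domains at 2 months and 59.1% in the knockout. Allowing interruptions of up to 10 kb, chosen after the data were seen, gave 2212 blocks with 439.4 Mb. Adding chromosome X gave 1490 blocks. Unknown depth limits every edge, since a break of 2 kb ends a block.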
